A study of Mus musculus with 4 samples.

Results

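The blood-testis barrier is the belt of cell junctions that neighbouring Sertoli cells build between themselves, and it divides the seminiferous epithelium into a basal and an adluminal space. Spermatogonia stay on the basal side, while meiotic and post-meiotic germ cells develop behind the barrier. The belt combines tight junctions, gap junctions and N-cadherin based adherens junctions, and actin filaments brace it from inside the cells. Here 9 genes for such junctions were followed, chosen by symbol from the 55357 genes of the count tables: the claudins Cldn11, Cldn3 and Cldn5, the MARVEL-domain proteins Ocln (occludin) and Marveld2 (tricellulin), the junctional adhesion molecule F11r (JAM-A), the scaffold Tjp1 (ZO-1), the gap junction protein Gja1 (connexin 43) and the classical cadherin Cdh2 (N-cadherin). All 9 symbols occurred once in the tables.

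Nuclei from whole testes of male mice aged 8 weeks were profiled by single-nucleus RNA-seq in 4 libraries, 2 labelled WT and 2 from mice without Dhx37 in Sertoli cells (Dhx37-/-). The Dhx37-/- mice carry floxed Dhx37 alleles on a C57BL/6 base and an Amh-Cre transgene, which is driven by the promoter of the Sertoli cell hormone AMH. The deletion is therefore meant for Sertoli cells alone, and whether the WT mice carried floxed alleles or Cre is not given in the labels. The labels call the libraries biological replicates of each genotype. Dhx37 encodes an RNA helicase of ribosome assembly. In Sertoli-like nuclei it gave 4 and 3 UMIs in the 2 WT samples, against 12 and 13 UMIs in the Dhx37-/- libraries, or 7.94 and 30.3 against 11.6 and 6.89 UMIs per 1000000 UMIs of these nuclei. These 3′ tags can lie outside the deleted exon, so they do not check the deletion.

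The libraries held 51797891 to 75611263 UMIs, and 8295 to 10030 nuclei per library were kept. A nucleus was put in a class when it held at least 3 different marker genes of that class and more of their UMIs than the library mean or free RNA, the transcripts that float in droplets without a nucleus, would give. Class names are therefore likenesses, and none of the 9 junction genes served as a marker. The gate gave 387 Sertoli-like nuclei, namely 56 and 12 in the 2 WT samples, against 120 and 199 in the Dhx37-/- libraries, at a median of 8108 to 9382 UMIs per nucleus. The upper limit of 5000 detected genes removed 13 and 15 nuclei of any class from the WT libraries, against 204 and 302 from the Dhx37-/- libraries. Without this limit the gate gave 62 and 13 Sertoli-like nuclei in WT, against 171 and 257 in Dhx37-/- libraries. Of 13 Sertoli markers, 5 (Sox9, Wt1, Fshr, Mro and Gata1) were used in the gate. The 8 markers that were not used, among them Cst9, Rhox5 and Inha, summed to 1070 to 1820 UMIs per 1000000 in Sertoli-like nuclei. Leydig-like nuclei held 387 to 851, spermatocyte-like nuclei up to 645 and endothelial-like nuclei 64.9 to 349. Free RNA itself carried them at 450 to 1650, and its 1650 in Dhx37-/- replicate 1 was close to the 1740 of Sertoli-like nuclei there. From Prm1, Prm2, Tnp1 and Tnp2, however, free RNA was estimated at 7.2% of the UMIs of these nuclei in that library. Over the 4 libraries the estimate was 5.01% to 9.52%, so free RNA adds a part of its own level to these nuclei. The 5 gate markers summed to 248 to 730 in endothelial-like nuclei, against 1840 to 2160 in Sertoli-like nuclei. Most nuclei, 85.9% to 96.1% of a library, passed no gate. Pairs of libraries shared 19 to 29 cell barcodes. Levels below are UMIs of a gene per 1000000 UMIs of a class in a library (CPM), and levels of different genes are not compared.

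Claudins form the paracellular seal itself, and Cldn11 is the claudin that Sertoli cell tight junctions are known for. Its level in Sertoli-like nuclei was 155 and 182 CPM in the 2 WT samples, against 179 and 193 CPM in the Dhx37-/- libraries, from 78, 18, 185 and 364 UMIs. All 4 values were close together and the genotypes overlapped. The other classes gave 35 sums over class and library, and none of them reached the lowest Sertoli-like value. Their median was 5.5 CPM, and the highest, 62.8 CPM in spermatogonia-like nuclei of WT replicate 1, rested on 2 UMIs. Below the Sertoli-like class, neighbours in the order of levels overlapped all the way down to Leydig-like nuclei at 2.05 CPM ± 1.58 (SD, n = 4), and none of those classes lay above the free RNA level of 17.8 to 26.4 CPM in every library.

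Cldn5, the claudin of blood vessel walls, showed the opposite distribution. In endothelial-like nuclei it stood at 610 and 843 CPM in the 2 WT samples, against 582 and 662 CPM in the Dhx37-/- libraries. No other class exceeded 4.59 CPM in any library, so the endothelial-like range lay apart from all of them. Sertoli-like nuclei of all libraries together held 1 Cldn5 UMI, and the 0 UMIs of WT replicate 1 and Dhx37-/- replicate 2 allow levels of up to 5.96 and 1.59 CPM. Of all Cldn5 UMIs in kept nuclei, endothelial-like nuclei held 70.7% and 65.8% in the 2 WT samples, against 65.0% and 25.4% in the Dhx37-/- libraries, the last from 7 nuclei.

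Cldn3 was sparse. Sertoli-like nuclei held 7 and 0 UMIs in the 2 WT samples, against 11 and 22 UMIs in the Dhx37-/- libraries, or 13.9, 0, 10.6 and 11.7 CPM. The 0 in WT replicate 2 came from 12 nuclei and allows up to 30.3 CPM. Free RNA carried Cldn3 at 4.91 to 10.1 CPM, close to these levels. It was, however, estimated to make up 5.01% to 9.52% of the UMIs of Sertoli-like nuclei, not all of them. The next class, fibroblast-like nuclei, stood at 3.02 CPM ± 1.61 (SD, n = 4). Endothelial-like and T cell-like nuclei held 0 UMIs in every library.

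Occludin and tricellulin are related membrane proteins, occludin along the contact of a pair of cells and tricellulin at corners where several cells meet. Ocln reached 91.3 and 70.6 CPM in Sertoli-like nuclei of WT testes, against 104 and 89.5 CPM in those of Dhx37-/- testes. Endothelial-like nuclei came next at 47.6 CPM ± 34.1 (SD, n = 4), and both ranges overlapped because 6 UMIs in WT replicate 2 gave 97.3 CPM. Of the 35 sums of other classes, 20 held no Ocln UMI.

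Marveld2 was nearly absent from Sertoli-like nuclei, with 1 and 0 UMIs in the 2 WT samples, against 0 and 2 UMIs in the Dhx37-/- libraries. Among gated classes, spermatogonia-like and T cell-like nuclei had the highest means, 13.6 and 11.7 CPM, from 7 and 4 UMIs. All of these UMIs came from the Dhx37-/- libraries, and the WT sums of both classes were 0, from 1 to 11 nuclei each. At 0.762 CPM ± 0.959 (SD, n = 4) Sertoli-like nuclei did not exceed free RNA, which held 1.14 to 3.14 CPM. The gene lies next to Ocln on chromosome 13, with only the gene Gm8847 between them in RefSeq (GRCm38.p6), a build used here for the order of genes alone. All nuclei were also clustered without the junction genes. The highest means of Marveld2 over the 4 libraries were then those of cluster 3 (led by Epha7 and Lef1) and cluster 11 (led by Neto2 and Auts2). Both were named spermatocyte-like, from 8 and 13 raised markers. The 644 nuclei that the gate called spermatocyte-like held only 9 Marveld2 UMIs, at 0 to 3.39 CPM (mean 1.1), and did not lie above free RNA. The Dhx37-/- libraries held 1 and 8 of these UMIs. The 0 UMIs of the 2 WT samples came from 20 and 24 nuclei and allow up to 45.2 and 34.9 CPM, so they say little about WT. Cluster 3 held 17.0 and 16.2 CPM in the 2 WT samples, against 10.5 and 12.8 CPM in the Dhx37-/- libraries, all above the free RNA of every library. Cluster 11 held 15.3 and 20.9 CPM against 5.41 and 6.7 CPM, from 5 to 29 UMIs per library. In the Dhx37-/- libraries the macrophage-like cluster 8 was higher than cluster 11, at 6.24 and 7.04 CPM from 4 UMIs each. The genotypes did not overlap in cluster 3 or cluster 11. The log2 fold change of Marveld2 was -0.49 (SE 0.391, adjusted p = 0.585) in cluster 3, where 0% of 15610 genes were called. In cluster 11 it was -1.35 (SE 0.488, adjusted p = 0.0759), where 17.3% of 12484 genes were called (edgeR quasi-likelihood test with Benjamini-Hochberg adjustment). Neither passed the threshold. In cluster 2, which stayed unnamed, Marveld2 stood at 7.73 and 5.77 CPM against 1.48 and 2.52 CPM, also apart (log2 fold change -1.75, SE 0.443, edgeR unadjusted p = 0.00436, adjusted p = 0.543), with 0% of 17629 genes called. Cluster 11 also held 820 nuclei of Dhx37-/- replicate 2 against 79 of WT replicate 2, and the part of its composition in this difference was not tested. These clusters were picked out after their values had been seen.

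**Figure D1:**
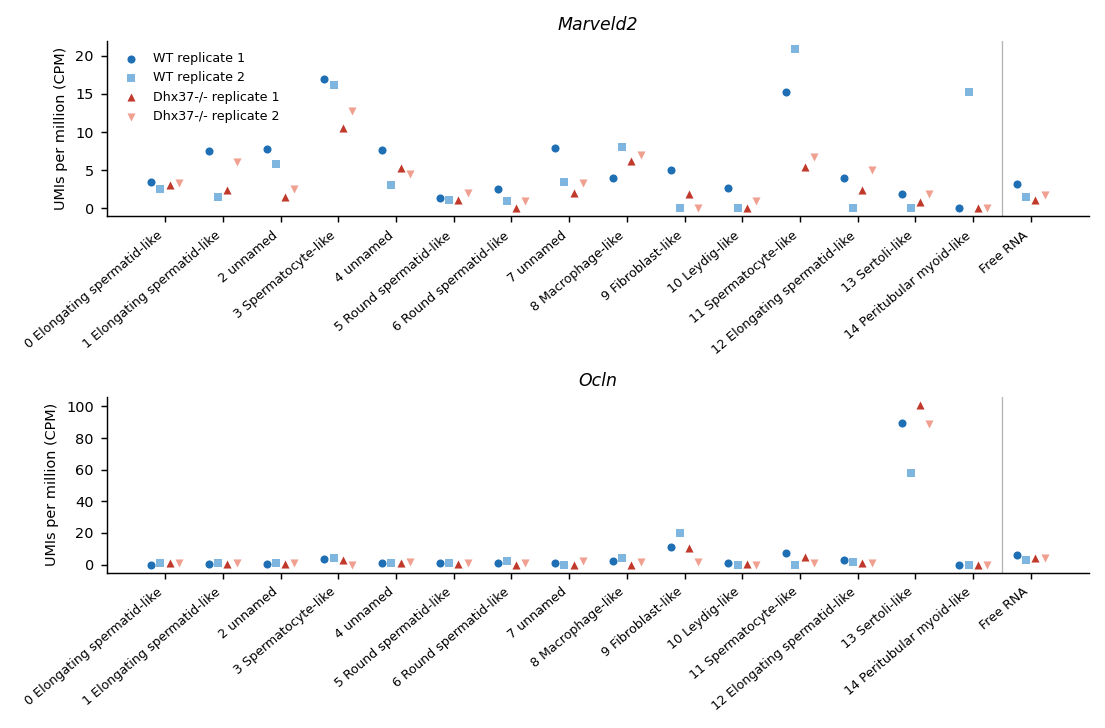
UMIs per 1000000 (CPM) of Marveld2 (top) and Ocln (bottom) in each cluster of nuclei and in free RNA, with 1 point per library (cluster sums under 5 nuclei left out). Marveld2 has its highest means in the spermatocyte-like clusters 3 and 11, although cluster 8 exceeds cluster 11 in both Dhx37-/- libraries, and it is at or below 1.91 CPM in the Sertoli-like cluster 13, where Ocln reaches 58.2 to 101 CPM.

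JAM-A, an immunoglobulin-type adhesion molecule of epithelia, vessels and leukocytes, was not confined to Sertoli-like nuclei. F11r stood there at 69.5 and 60.5 CPM in the 2 WT samples, against 69.5 and 94.8 CPM in the Dhx37-/- libraries. Endothelial-like nuclei were higher on average, at 99.9 CPM ± 31.4, and fibroblast-like and macrophage-like nuclei followed at 66.0 CPM ± 36.9 and 61.3 CPM ± 29.6 (SD, n = 4). The ranges of all these neighbours overlapped, so their order is not resolved. The germ cell classes after spermatogonia had the lowest means, with 1.67 CPM ± 2.21 in spermatocyte-like and 1.38 CPM ± 2.75 in round spermatid-like nuclei (SD, n = 4), below the free RNA level of 14.3 to 21.3 CPM.

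ZO-1 ties claudins and occludin to actin. From 5586 UMIs in all, Tjp1 in Sertoli-like nuclei stood at 1420 and 1010 CPM in the 2 WT samples, against 1690 and 1600 CPM in the Dhx37-/- libraries, each above every other class sum. Endothelial-like nuclei followed at 422 CPM ± 116 (n = 4 libraries) and spermatogonia-like nuclei at 270 CPM ± 65.6 (SD, n = 3 libraries with at least 5 nuclei). These 2 classes overlapped with each other, and both lay above spermatocyte-like nuclei at 120 CPM ± 15.1 (SD, n = 4). Macrophage-like and T cell-like nuclei had the lowest means, 28.2 CPM ± 14.2 and 32.9 CPM ± 22.9 (SD, n = 4), and overlapped.

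Connexin 43 is the main gap junction protein of Sertoli cells, and Leydig cells couple through it as well. Gja1 stood at 111 and 101 CPM in Sertoli-like nuclei of WT testes, against 134 and 117 CPM in those of Dhx37-/- testes. Leydig-like nuclei held 108 and 78.9 CPM against 96.3 and 146 CPM, and endothelial-like nuclei averaged 106 CPM ± 31.9 (SD, n = 4). These 3 classes overlapped and could not be ordered. Fibroblast-like and peritubular myoid-like nuclei were far lower, at 5.12 CPM ± 0.435 and 2.36 CPM ± 2.87 (SD, n = 4), under the free RNA level of 19.0 to 22.7 CPM.

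N-cadherin joins Sertoli cells to each other and to germ cells. Cdh2 reached 951 and 767 CPM in Sertoli-like nuclei of WT testes, against 714 and 775 CPM in those of Dhx37-/- testes, and no other class came near these values. Spermatogonia-like nuclei at 187 CPM ± 87.3 (SD, n = 3) and spermatocyte-like nuclei at 102 CPM ± 24.2 (SD, n = 4) overlapped with each other. Fibroblast-like nuclei came next at 28.4 to 63.8 CPM, below every spermatocyte-like value, while endothelial-like and peritubular myoid-like nuclei reached up to 99.3 and 84.2 CPM and overlapped with the spermatocyte-like class. Peritubular myoid-like nuclei held 62.1 and 84.2 CPM in WT against 23.2 and 11.8 CPM in Dhx37-/- libraries, apart but from 2 to 17 UMIs, and the difference was not tested because WT replicate 2 held 19 of these nuclei. Leydig-like nuclei held 35.2 CPM ± 10.9 and macrophage-like nuclei 12.1 CPM ± 6.34 (SD, n = 4).

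**Figure D2:**
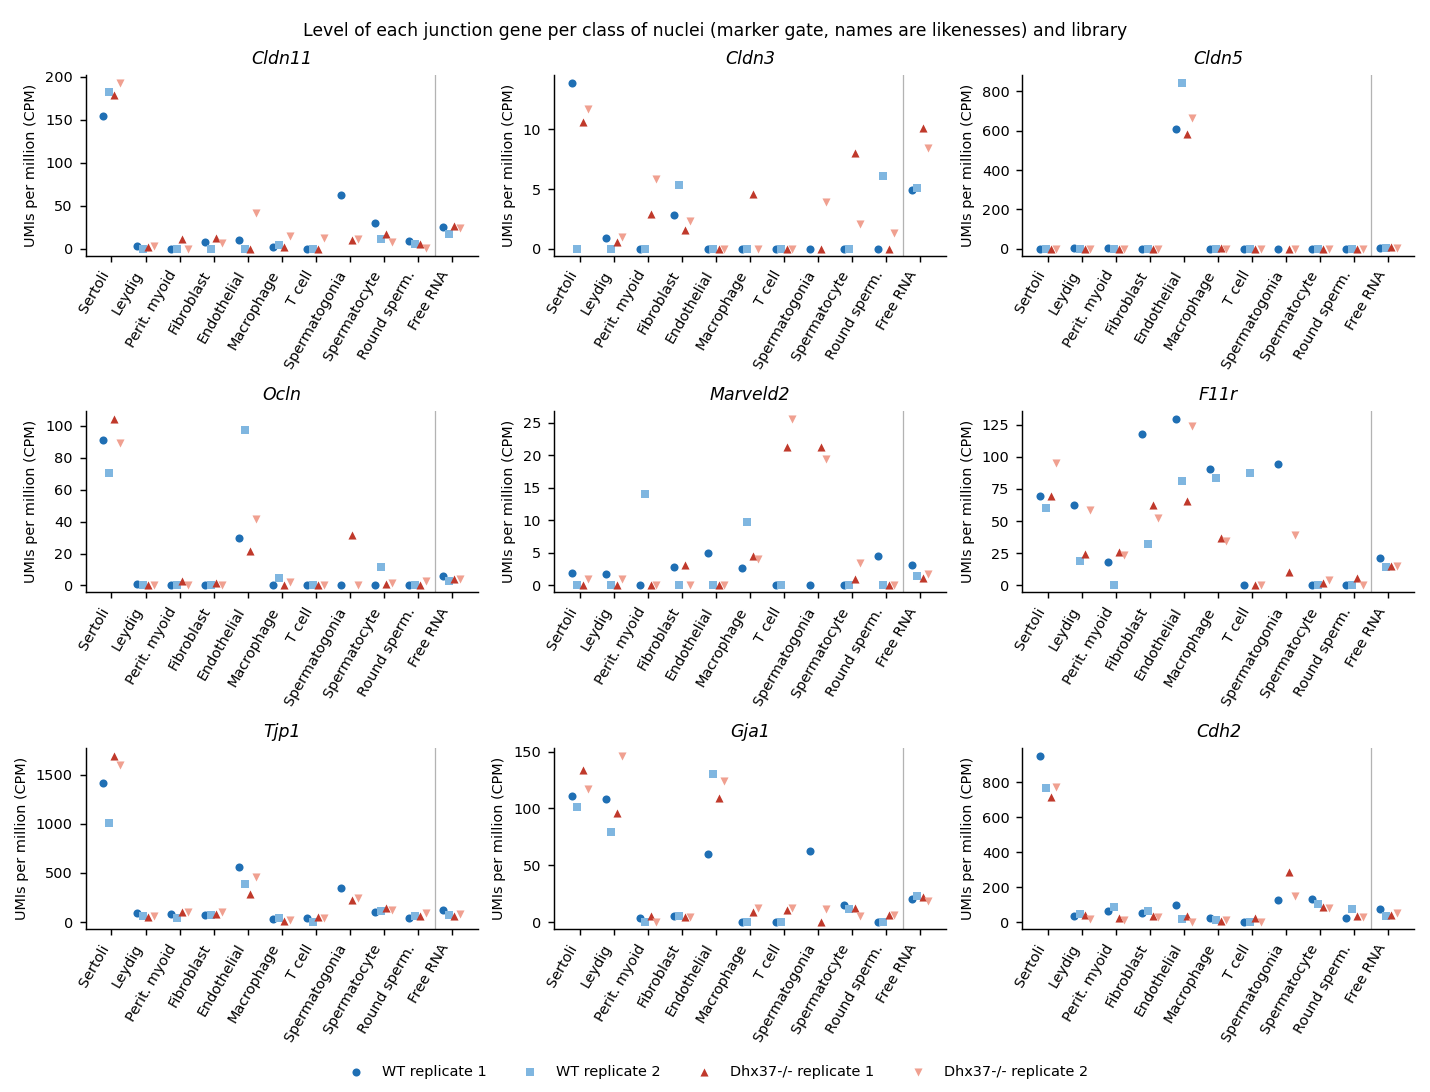
Level of each of the 9 junction genes in UMIs per 1000000 (CPM, a separate linear axis per gene) in 10 gated classes of nuclei and in free RNA, with 1 point per library (class sums under 5 nuclei left out). Cldn11, Tjp1 and Cdh2 are highest in Sertoli-like nuclei of every library, Cldn5 in endothelial-like nuclei, and Gja1 and F11r are shared by several classes.

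Sertoli-like nuclei were then compared with the mean of 8 other classes that had enough nuclei, with the library as a block. Spermatogonia-like nuclei, at 187 CPM on average for Cdh2 and 270 CPM for Tjp1, were too few and were left out. Of the 9 members, 7 passed the filter on low counts and 6 were higher in Sertoli-like nuclei, while 32.9% of the 12499 genes tested were called higher. The fitted log2 difference was 4.84 for Cdh2 (SE 0.191, adjusted p = 2.9e-30) by the edgeR quasi-likelihood test with Benjamini-Hochberg adjustment. It was 4.37 for Tjp1 (SE 0.175, adjusted p = 6.07e-30), 3.54 for Gja1 (SE 0.227, adjusted p = 1.14e-20) and 2.30 for F11r (SE 0.277, adjusted p = 1.88e-10) in the same edgeR fit. Gja1 and F11r each had 9 of the 35 other sums at 0, with medians of 6.6 and 26.2 CPM. These 35 include 3 sums of spermatogonia-like nuclei that were not in the fit. Their fitted differences therefore rest in part on classes with few counts. Ocln and Cldn11, with medians of 0 and 5.5 CPM over the other sums, passed the filter through their Sertoli-like sums, so that a higher level there was a condition of being tested. Their fitted log2 differences of 6.11 and 5.19 also depend on small counts and are given as a description, and the count of 6 is not read as support. The median over all genes was -0.10. Cldn5, at or near 0 in every class but the endothelial-like one, was not called, and Cldn3 and Marveld2 did not pass the filter.

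Folds of raw levels against all other gated nuclei of the same library were smaller for the shared genes. Tjp1 was 12.1 to 20.0 times higher in Sertoli-like nuclei, Cdh2 15.0 to 20.5 times and Ocln 10.7 to 74.4 times over the 4 libraries. Cldn11 was 24.9 to 30.5 times higher in the 3 libraries with more than 3 UMIs in the other nuclei. Gja1 was 2.07 to 3.4 times higher and F11r 0.998 to 3.34 times, the lowest value being that of WT replicate 1. These folds weigh each class by its nuclei, and the mix of classes differed between libraries.

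The share of nuclei with at least 1 UMI was compared after each nucleus was thinned to 3000 UMIs, which left out 0 to 6 Sertoli-like nuclei per library. Cdh2 was then found in 87.5% and 83.3% of Sertoli-like nuclei of WT testes, against 73.7% and 80.2% of those of Dhx37-/- testes. For Tjp1 the shares were 75.0% and 83.3% against 80.7% and 82.7%. Leydig-like nuclei at the same depth gave 4.55% to 9.09% for Cdh2 and 15.5% to 20.9% for Tjp1. Cldn11 was found in 37.5% and 58.3% of Sertoli-like nuclei against 38.6% and 42.6%, and in 0% to 1.6% of Leydig-like nuclei. For Gja1 the shares of both classes overlapped, with 19.6% to 33.3% of Sertoli-like and 21.9% to 27.3% of Leydig-like nuclei. Without thinning Cldn11 was found in 70.8% to 81.9% of Sertoli-like nuclei and Cdh2 in 91.7% to 98.2%. The 12 nuclei of WT replicate 2 set wide limits, for example a Wilson interval at 95% of 32.0% to 80.7% for Cldn11, and such intervals cover counting error only.

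**Figure D3:**
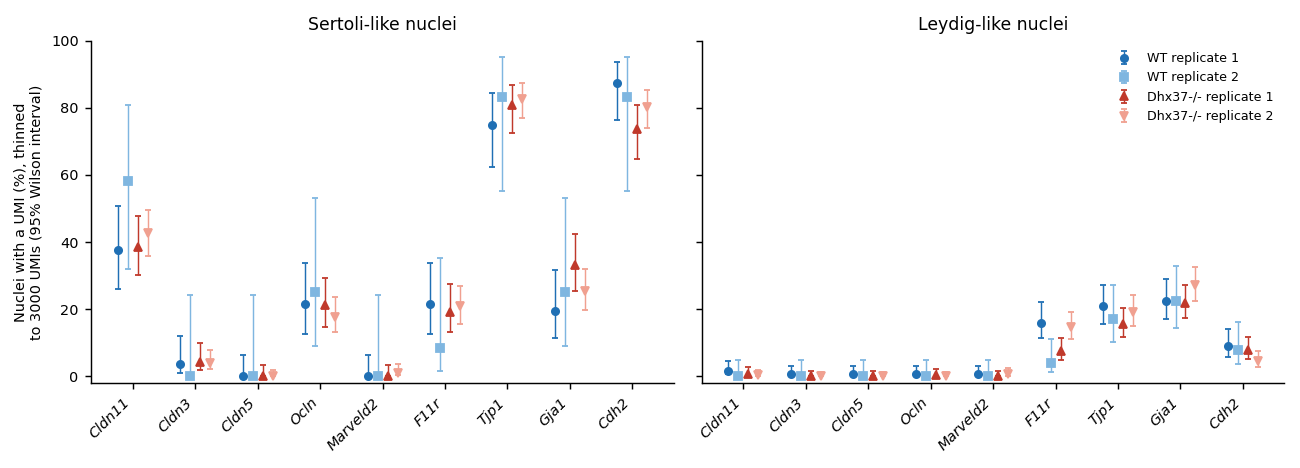
Share of Sertoli-like (left) and Leydig-like (right) nuclei with at least 1 UMI of each gene after thinning to 3000 UMIs per nucleus, per library, with Wilson intervals at 95%. Cdh2 and Tjp1 are found in most Sertoli-like nuclei of every library, Cldn5 and Marveld2 in 0% to 1.02% of them, and Gja1 to a similar extent in both classes.

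Between genotypes, no change of a junction gene was detected in Sertoli-like nuclei. Of the 6 members that passed the filter, 0 were called, and 0% of 9669 genes were called at all (edgeR quasi-likelihood test with Benjamini-Hochberg adjustment, 4 libraries). DESeq2 called 0 genes as well, and 868 genes had an unadjusted edgeR p under 0.05. The count over all genes depended on single libraries, with 583 of 12217 genes called without WT replicate 2, which held 12 Sertoli-like nuclei, and 57 of 12548 without WT replicate 1. Each of these fits has 1 WT library, which is assumed to vary like the Dhx37-/- libraries. No member was among them. From snRNA-seq of such testes the study reported genes raised and lowered in Sertoli cells of Dhx37-/- mice. Its methods name a Wilcoxon test for differential genes. It also listed Tjp1 among genes raised in its trajectory of Sertoli cells. The comparison here took sums per library as its units and did not treat nuclei as replicates, so the results are not of the same kind.

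Tjp1 had the largest difference among the members, a log2 fold change of 0.34 (95% interval -0.22 to 0.90, adjusted p = 0.724 by edgeR), with both Dhx37-/- libraries above both WT libraries. Cdh2 went the other way at -0.30 (95% interval -0.85 to 0.25, adjusted p = 0.756 by edgeR), and its genotypes overlapped, since WT replicate 2 lay below Dhx37-/- replicate 2. Gja1 differed by 0.12 (95% interval -0.48 to 0.72) on the log2 scale, also with both Dhx37-/- libraries above both WT libraries. How many of all genes separate in this way was not counted, so the order of libraries is not read as a result about Tjp1 or Gja1. Cldn11 differed by 0.11 (95% interval -0.48 to 0.69) and Ocln by 0.07 (-0.57 to 0.71), with overlap. F11r differed by 0.22 (95% interval -0.50 to 0.93). Over the 6 members the intervals reach from -0.85 to 0.93 on the log2 scale, and changes within them could not be detected with these libraries. Neither sign was stable for F11r, Ocln and Cdh2, which changed direction without Dhx37-/- replicate 2, WT replicate 2 and WT replicate 1, at -0.01, -0.04 and 0.05.

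**Figure D4:**
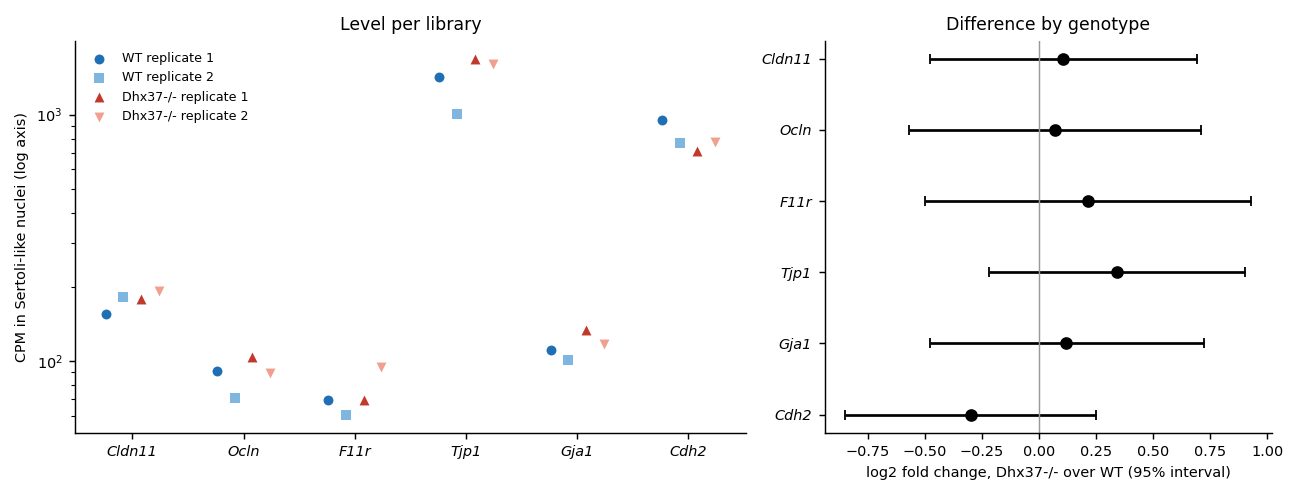
Left, level in Sertoli-like nuclei in UMIs per 1000000 (CPM, log axis) of the 6 junction genes that passed the filter on low counts, with 1 point per library. Right, log2 fold change of Dhx37-/- over WT with its interval at 95% from edgeR, and every interval includes 0.

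Levels over all kept nuclei were compared next, as values without a test. Cldn11 stood at 8.04 and 3.34 CPM in the 2 WT samples, against 12.8 and 13.3 CPM in the Dhx37-/- libraries. Ocln stood at 2.76 and 1.68 CPM against 4.49 and 5.13 CPM. Tjp1 stood at 115 and 103 CPM against 141 and 153 CPM, and Cdh2 at 54.6 and 42.1 CPM against 60.1 and 76.8 CPM. Gja1 averaged 14.7 CPM ± 1.84 against 20.0 CPM ± 0.566 (SD, n = 2), and Cldn3 stood at 1.52 and 2.22 CPM against 3.8 and 2.59 CPM. For each of these genes both Dhx37-/- values were the higher ones. The share of all genes that separate in this way was not counted, so the pattern is not read as a result about junction genes. In free RNA Cldn3 was likewise higher, at 4.91 and 5.06 CPM against 10.1 and 8.45 CPM, while the genotypes overlapped for the others, with means of 21.9 against 25.4 CPM for Cldn11 and 4.29 against 4.08 CPM for Ocln. The free RNA means of Tjp1 and Cdh2 were lower in the Dhx37-/- libraries, at 69.9 against 100 CPM and 45.2 against 55.7 CPM, and that of Gja1 was 20.6 against 21.7 CPM. Cldn5 and Marveld2 had lower means in the Dhx37-/- libraries, 2.44 against 3.75 CPM and 3.31 against 4.21 CPM, with overlap, and F11r overlapped as well. Sertoli-like nuclei made up 0.566% and 0.145% of kept nuclei in the 2 WT samples, against 1.36% and 1.98% in the Dhx37-/- libraries. In such sums, a different number of cells and a different amount of RNA per cell cannot be told apart. Sertoli-like nuclei carried 27.9% and 17.1% of all Cldn11 UMIs of kept nuclei in the 2 WT samples, against 40.9% and 60.4% in the Dhx37-/- libraries, and 47.9% and 13.2% against 68.4% and 72.8% of the Ocln UMIs. For Tjp1 these shares were 17.8% and 3.08% against 35.4% and 43.5%.

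**Figure D5:**
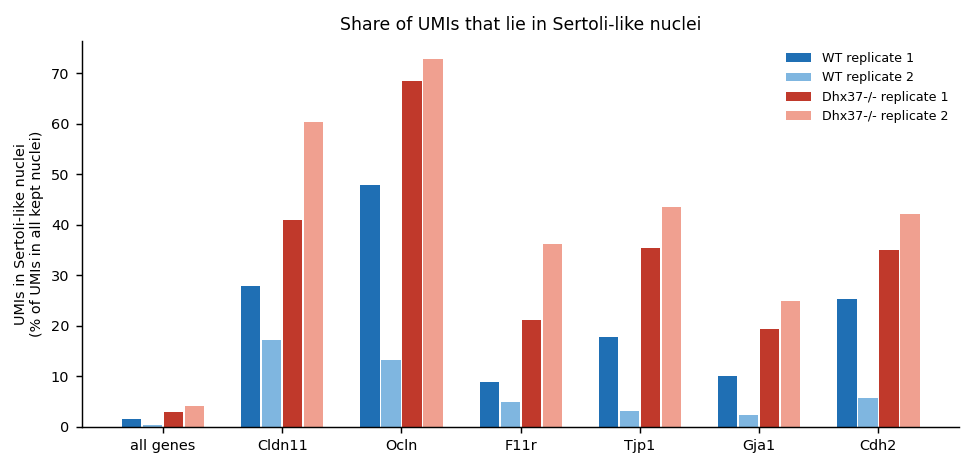
UMIs that lie in Sertoli-like nuclei as a percentage of the UMIs in all kept nuclei, for all genes together and for 6 junction genes, with 1 bar per library. All genes together stay at 0.315% to 4.17%, while Cldn11 reaches 17.1% to 60.4%, and the shares are higher in both Dhx37-/- libraries, which hold more Sertoli-like nuclei.

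Outside Sertoli-like nuclei, 13 tests of members in 5 classes gave 0 calls by edgeR, and DESeq2 gave 0 as well. The share of all genes called was 0% in Leydig-like and macrophage-like, 0.0618% in fibroblast-like, 0.0133% in round spermatid-like and 2.77% in spermatocyte-like nuclei. F11r in macrophage-like nuclei came closest, at 90.4 and 83.3 CPM in the 2 WT samples, against 36.7 and 34.9 CPM in the Dhx37-/- libraries. The genotypes were apart, with a log2 fold change of -1.32 (95% interval -2.06 to -0.58), but it did not pass the correction (edgeR unadjusted p = 0.00273, adjusted p = 0.229). The adjusted p lay between 0.086 and 1 over the alternatives. Tjp1 in the same nuclei had an unadjusted edgeR p of 0.0488 (adjusted p = 0.444), from 5 to 13 UMIs per library and below the free RNA level. In endothelial-like nuclei, where a library held as few as 7 nuclei and no fit was made, Cldn5 averaged 726 CPM ± 165 in WT and 622 CPM ± 56.6 in Dhx37-/- libraries (SD, n = 2), and the genotypes overlapped.

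A further 95 junction genes put the members in context. Of these, 64 could be tested between Sertoli-like nuclei and the other classes, and 30 were higher and 12 lower, where 32.9% and 27.9% of all genes tested were called. Genes found mainly in Sertoli-like nuclei passed the same filter through that class, as Ocln and Cldn11 did, so these counts and differences are a description and are not read as support. Among tight junction membrane genes, Lsr (log2 difference 3.97), Jam2 (3.50), Jam3 (2.40) and Cxadr (1.69) were higher and Cldn12 was lower (-1.41). Jam2 and Jam3 encode relatives of JAM-A, and Lsr encodes angulin-1, which recruits tricellulin to cell corners. Among scaffold and polarity genes Cgn, for cingulin that binds ZO-1, was higher by 5.72, Amot by 4.94, Pard3b by 4.03, Cgnl1 by 2.64, Prkci by 2.63 and Magi1 by 1.82. In the same group Pard3 (-2.90), Mpdz (-2.66), Amotl1 (-1.95) and Magi2 (-1.29) were lower.

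The ectoplasmic specialization is the actin-rich junction that Sertoli cells form with each other and with spermatids. Espn, for the actin bundler of this structure, was higher by 5.44 on the log2 scale, followed by Itga6 (4.00), Eps8 (3.38), Vcl (2.82), Palld (2.68), Actn4 (1.59), Lama3 (1.47) and Rdx (0.65). Actn1, Ezr and Lamb3 were lower, by -1.46, -2.23 and -2.29. Of the adherens junction genes, Ctnna2 was higher by 5.95, with smaller differences for Nectin2 (2.40), Ctnnd1 (2.14), Ctnna3 (1.56), Ctnnd2 (1.48), Afdn (1.14) and Ctnnb1 (0.50). Nectin3 (-1.71) and Nectin1 (-1.07) were lower. Among barrier regulators Fyn (3.69), Src (3.17) and Ptk2 (0.85) were higher and Lats2 (-1.28) was lower. The only other gap junction gene tested, Gjc1, was lower by -2.33, and 0 of 2 desmosome genes were called. Some calls near the threshold were lost while the log2 difference stayed of similar size, namely Ctnnb1 without Dhx37-/- replicate 1 (0.61), without Dhx37-/- replicate 2 (0.39) and with free RNA subtracted (0.48), Nectin1 without WT replicate 2 (-1.02), and Lats2 without Dhx37-/- replicate 2 (-1.01). Without Dhx37-/- replicate 1, Actn1, Cldn12 and Gjc1 could not be estimated, with SEs of 30.3, 7.34 and 661 on the log2 scale, and were not called. Ctnnb1 was also not called with RLE size factors (0.40) or library totals (0.21), Nectin1 without a filter on low counts (-1.04) or with doublets removed (-0.88), and Lama3 (0.83) with at least 4 markers in the gate. Lamb3 had no SE with 4 markers and was not called.

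Between genotypes, 52 of the 95 genes could be tested in Sertoli-like nuclei and 0 were called by edgeR. Their median log2 fold change was -0.12, beside 0.01 over all genes tested. The smallest p of each group belonged to Amotl1 (log2 fold change -2.51, edgeR adjusted p = 0.357), Ctnnd2 (-0.96, 0.416), Lama3 (-1.18, 0.436), Ildr2 (1.5, 0.554), Gja5 (0.79, 0.593), Pkp4 (-0.75, 0.601) and Lats2 (-1.16, 0.607). Without WT replicate 2, in the fit that called 583 of 12217 genes and took its spread from the Dhx37-/- libraries alone, Amotl1, Ctnnd2, Lama3 and Gja5 were called, with edgeR adjusted p of 3.99e-06, 0.000417, 0.019 and 0.0456. With no filter on low counts and all 4 libraries, Amotl1 was called as well (log2 fold change -2.41, edgeR adjusted p = 0.00734). Lama3 stood at 59.6 and 40.4 CPM in the 2 WT samples, against 25.1 and 26.5 CPM in the Dhx37-/- libraries. These values did not overlap, but Lama3 had been picked for the smallest p of its group. Ctnnd2, for a delta-catenin that binds cadherins, stood at 254 and 182 CPM against 107 and 141 CPM. The study also stained for alpha-catenin and beta-catenin, and by Western blot it reported less of both proteins and of N-cadherin in Dhx37-/- testes. The genes of these catenins are therefore given beside Cdh2 although they fall outside the rule. RNA of Sertoli-like nuclei is a different measure from protein of testes. Ctnna1 differed by -0.15 (95% interval -0.81 to 0.52) and Ctnnb1 by -0.16 (95% interval -0.88 to 0.55) on the log2 scale. Ctnna2, for alphaN-catenin, stood at 5310 and 3870 CPM against 2670 and 3290 CPM (log2 fold change -0.70, edgeR adjusted p = 0.497).

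In spermatocyte-like nuclei 37 of the 95 genes could be tested and 2 were called, beside 2.77% of all 9781 genes tested. Magi2, for a membrane scaffold, rose from 151 and 69.8 CPM in the WT libraries to 1080 and 1100 CPM in the Dhx37-/- libraries (log2 fold change 3.45, edgeR adjusted p = 0.0164). Ctnnd2 fell from 888 and 419 CPM to 121 and 123 CPM (log2 fold change -2.30, edgeR adjusted p = 0.0202). The WT values rest on 20 and 24 nuclei against 188 and 412. With free RNA subtracted the log2 fold changes were 4.83 for Magi2 and -2.33 for Ctnnd2, no smaller than before, but neither passed the correction (edgeR adjusted p = 0.127 for each). Neither held when clusters replaced the gate, with adjusted p of 0.0695 and 0.766 and log2 fold changes of 1.40 and -0.31 in edgeR.

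The genes whose level across 39 sums of class and library was most like that of a member were found by Pearson correlation of log2 CPM with a pseudocount of 10, gate markers left out. These correlations are descriptions, since all sums share 4 libraries. Cldn11 was most like Tyro3 (r = 0.901), a receptor for the uptake of dying germ cells, then 9530059O14Rik (0.896) and Gm47026 (0.895). Ocln was most like Wt1os (r = 0.921), which lies antisense to the gate marker Wt1, then Cttnbp2 (0.877) and Mcf2 (0.851). Tjp1 was followed by Pdia5 (r = 0.898), Fhl1 (0.862) and Wipf3 (0.84), and Cdh2 by Zfp711 (r = 0.872), Rab11fip3 (0.862) and the cingulin gene Cgn (0.859). Cldn5 was nearly matched by Dipk2b (r = 0.996), Adgrl4 (0.993), an adhesion receptor of vessels, and Mal (0.991). Gja1 was most like Gca (r = 0.864), Tpd52l1 (0.846) and Gm45889 (0.84), and F11r like Klhl5 (r = 0.733), Trio (0.72) and Map4k4 (0.718). For Cldn3 and Marveld2, with 68 and 40 UMIs over these sums, the closest genes were Cidea (r = 0.754), Tbx22 (0.72) and 6330415B21Rik (0.712), and Slc9a7 (r = 0.69), Prr3 (0.646) and Mogs (0.641).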

How the data were processed

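The authors ran Cell Ranger and deposited raw UMI counts per gene and barcode. The paper names mm39 and the labels name GRCm38, so no coordinates are given. Barcodes above a threshold of 926.3 to 1866.9 UMIs, set per library, were called nuclei by depth alone. Those below it were called against the ambient profile of barcodes ranked 45000 to 90000 (adjusted p under 0.01). After the study's filter, nuclei needed 500 to 5000 detected genes, 500 UMIs or more and a mitochondrial share of 25% or less. Gate markers had at most 2 times the share in free RNA that they had in nuclei. A class needed at least 3 of them and a Poisson p of at most 1e-04. Doublets stayed in (Scrublet marked 4.18% to 4.57%). Counts were summed per class and library and compared with edgeR 4.0.16 (TMM, filterByExpr, two-sided quasi-likelihood test, Benjamini-Hochberg over all genes, 0.05) in R 4.3.3, and with DESeq2 1.42.0. P-values of the genotype comparison measure the spread between 2 libraries per genotype. Those of the class comparison measure the spread of 36 sums of class and library after class and library were fitted (24 residual degrees of freedom). The class comparison used sums of at least 5 nuclei from classes with 20 nuclei in at least 2 libraries, and the genotype comparison classes with 20 in every library, besides Sertoli-like nuclei. Named genes are the 9 members, Dhx37, the other junction genes past the threshold or with the smallest p of their group, and the 3 genes most like each member. Members and lists were chosen with earlier results of these data known. In a simulation of the Sertoli genotype comparison with the same spread for every gene, 72.9% of the 155 genes given a 4-fold change and tested were called. Smaller changes, such as those within the intervals of the members, were not simulated. Some genes that the rule would name are not reported here.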

Additional observations from a re-analysis of the deposited data

How the results depend on the processing

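The count of 0 called members in Sertoli-like nuclei held under every alternative run, as did 0 in the other classes, also in clusters 0 to 12 by number (added after seeing the data; clusters 13 and 14 had under 20 nuclei in a library). The 6 members higher in Sertoli-like nuclei held too, with 7 when no filter on low counts was applied, and 0 were lower. Over all genes, the Sertoli comparison called 0 to 583 genes when each library was left out in turn, 40 without a filter on low counts and 65 with at least 4 markers in the gate. With at least 4 markers, WT replicate 2 held only 2 Sertoli-like nuclei. The cause of the differing counts was not tested. In the comparison of classes the median of all genes moved from -0.10 to -0.21 with RLE size factors and to -0.40 with library totals. With a replicate block, 0 genes were called; the replicate numbers gave correlations of deviations of -0.29 to -0.01 and only name the samples. Genotype log2 fold changes that were not called changed sign for F11r (-1.09 to 0.82 in fibroblast-like, -0.85 to 1.02 in Leydig-like and -0.01 to 0.56 in Sertoli-like nuclei when each library was left out, with 0.45 in Leydig-like nuclei without Dhx37-/- replicate 1, and -0.17 in Sertoli-like nuclei with no upper limit on genes), Tjp1 (0.07 in macrophage-like nuclei with no upper limit; -0.48, -0.15 and -0.47 in fibroblast-like, round spermatid-like and spermatocyte-like nuclei with clusters in place of the gate), Cdh2 (-1.13 to 0.45 in round spermatid-like and -0.46 to 0.05 in Sertoli-like nuclei when each library was left out, 0.79 and 0.59 in spermatocyte-like nuclei with no upper limit and with clusters), in Sertoli-like nuclei Ocln (-0.04 to 0.53), Gja5 (-0.04 to 1.2, called without WT replicate 2) and Pkp4 (0.10 with 4 markers).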

Other observations

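Some junction transcripts were also counted in clusters of germ cells and in unnamed clusters. Tjp1 stood at 186 to 200 CPM over the 4 libraries in cluster 4, which was led by Cadm2 and Spef2 and stayed unnamed, and at 125 to 132 CPM in the round spermatid-like cluster 5. In the other round spermatid-like cluster, number 6, it stood at 40.4 to 51.1 CPM, apart from cluster 5. Free RNA held 59.1 to 127 CPM of Tjp1, so cluster 4 lay above it in every library. Gja1 was also highest among these 3 clusters in cluster 4, at 22.9 to 33.4 CPM against 9.75 to 15.3 CPM in cluster 5 and 4.4 to 5.85 CPM in cluster 6. Free RNA held Gja1 at 19.0 to 22.7 CPM, above clusters 5 and 6. Cdh2 reached 121 to 212 CPM in cluster 11 and 47.7 to 61.6 CPM in cluster 4, the latter within the free RNA range of 37.0 to 74.4 CPM. The clusters were picked after their values had been seen, and their differences were not tested.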
